A study of Rattus norvegicus with 47 samples.

Results

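Genes for the proteins of the cytosolic ribosome were followed in the blood of spontaneously hypertensive rats over the 24 h after middle cerebral artery (MCA) occlusion. The members were the gene symbols of the array table with the names of cytosolic ribosomal proteins (Rpl or Rps with a number and at most the letter a, the stalk proteins Rplp0, Rplp1 and Rplp2, and Rpsa and Fau), and each was read from its probe set with the highest mean signal. There were 77 such symbols among the 20935 in the table, 46 for proteins of the large (60S) subunit and 31 for proteins of the small (40S) subunit, and their choice used signal level but no change over time. Every group consisted of whole blood of male SHR rats aged 16 weeks, an inbred strain with hypertension. In 8 rats the artery was closed for a limited time with a silicon-coated thread and then reopened, and blood was drawn before anesthesia (0 h) and at 1, 2, 3, 6 and 24 h post MCA occlusion. Each time point had 8 arrays, apart from 6 h with 7. The artery was still closed when the 1 h sample was taken. All samples after 0 h therefore follow anesthesia, neck surgery and earlier bleeding, and no sham-operated rats were analysed here. The number of earlier draws rose with time. By the paper's methods the artery was reopened under anesthesia, after the 1 h sample, so these exposures differ between time points. Blood was drawn from the tail vein into heparin up to 6 h and from the heart after an anesthetic overdose at 24 h, where time and bleeding site cannot be told apart.

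A ribosome joins one copy of nearly every one of these proteins to the ribosomal RNAs, and cells make the proteins in matching amounts. Their mRNAs are among the most abundant of a cell and most begin with a run of pyrimidines (C or T in the DNA), the 5′ terminal oligopyrimidine (TOP) motif, through which the kinase mTOR and the RNA-binding protein Larp1 control their translation and stability. In blood, lymphocytes are rich in these mRNAs. Mature neutrophils make little new ribosome, while young red cells (reticulocytes) still carry ribosomes that are lost as the cell matures.

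RNA of the whole blood cell pellet was measured on Affymetrix gene arrays, whose probes are spread along the exons of a gene, with 27596 probe sets. Values are log2 signals of the probe set, given as the authors' mean for each time point, with the authors' SD over its arrays in brackets. A change is the difference of a later mean from the 0 h mean, with a negative sign for a lower signal. Its SE, given after ±, its 95% interval and its p-value come from the moderated test of limma, computed from the deposited means, SDs and numbers of arrays and adjusted by Benjamini-Hochberg over all 27596 probe sets, and a change was called at an adjusted p below 0.05. The test takes samples of a rat as independent, since the columns of single arrays carry running numbers that no label gives and were not used, and whether single arrays of 2 time points overlap was not analysed here. Of the 77 members, 76 had a mean signal among the highest 25% of all probe sets and 69 in the highest 10%. No member was left out for low signal. The blood cell markers of the labelled tissue were measured, with the neutrophil, T cell, B cell and erythroid lists described at the end.

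In the median, the ribosomal protein genes fell after MCA occlusion, were lowest at 6 h and had partly returned by 24 h. Of the members, 15 were called at no time point. At 6 h all 77 members had a lower mean than at 0 h and 61 of them were called lower, with a median change of −0.41, or a percent change of −24.9%. No member was called higher than at 0 h at any time point. Large and small subunit genes had similar shares and medians. The members had median changes of −0.19, −0.25, −0.27, −0.41 and −0.12 at 1, 2, 3, 6 and 24 h, while over all probe sets it lay between 0.04 and 0.07.

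At 1 h, 23 of the 77 members were called lower, against 15.4% of all probe sets. This rose to 42 at 2 h (18.6% of all probe sets), 52 at 3 h (19.2%) and 61 at 6 h (19.3%), and dropped to 17 at 24 h (13.9%). As shares of the members these are 29.9%, 54.5%, 67.5%, 79.2% and 22.1%. Bright probe sets were called more often than dim ones, and of the 6899 in the brightest 25%, 30.6%, 34.5%, 36.7%, 37.6% and 28.1% were called lower at 1, 2, 3, 6 and 24 h. Against these bright probe sets the share of members called lower was therefore no larger at 1 h and 24 h. It was larger at 2, 3 and 6 h. With Bonferroni adjustment the members' share was below theirs at 2 h (11.7% against 14.7%). It was then close to theirs at 3 h (14.3% against 13.8%) and larger at 6 h (23.4% against 14.8%). No member was higher even at an unadjusted p below 0.05 at any of the 5 time points, or by an ordinary test without moderation, while by unadjusted p 33, 50, 57, 66 and 19 were lower at 1, 2, 3, 6 and 24 h. By that rule 18.2%, 20.8%, 21.0%, 21.6% and 17.4% of all probe sets were lower and 34.9%, 37.6%, 39.5%, 41.2% and 33.4% of the bright ones, against 42.9%, 64.9%, 74.0%, 85.7% and 24.7% of the members. With the means of each time point centred on their median over all probe sets, 35 members in place of 23 were called lower at 1 h, or 45.5%, against 18.8% of all probe sets and 36.0% of the bright ones under the same centring. At 1 h the order of members and bright probe sets thus depended on the scaling. It also depended on the rule for a call, with 42.9% against 34.9% by unadjusted p. An F-test over the 6 time points called 55 of the 77 members, or 71.4%, which lies between 55.5% of all probe sets and 80.5% of the bright ones. At the stricter F-test p of 5e-07 that the study's methods used, 14 members passed, or 18.2%, against 13.5% of all probe sets and 33.4% of the bright ones, so that the members' share was again below that of bright probe sets.

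**Figure D1:**
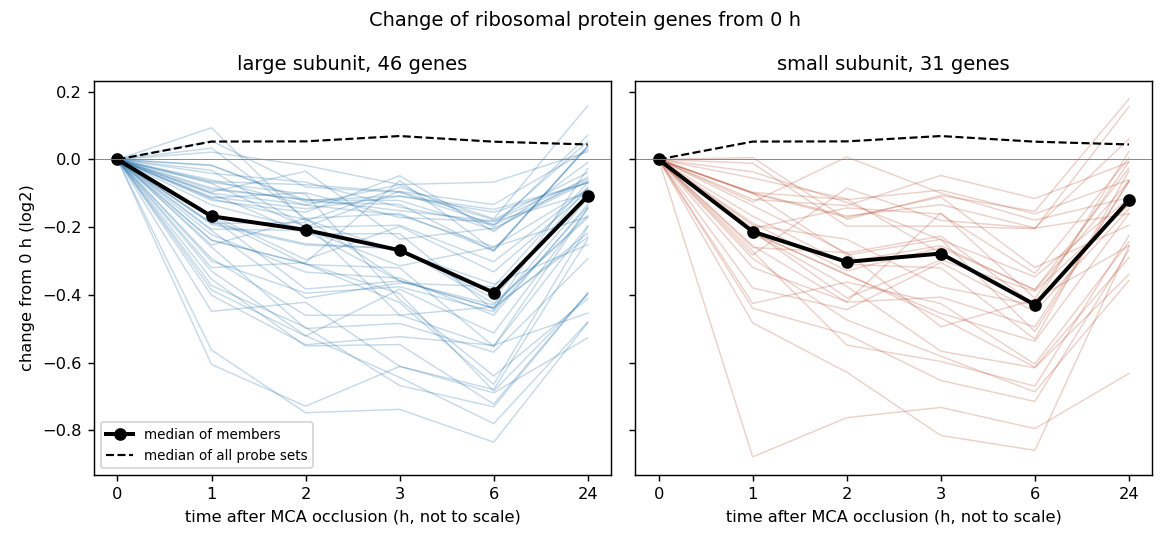
Change of each ribosomal protein gene from 0 h on the log2 scale (vertical axis) at the 6 time points (horizontal axis, hours post MCA occlusion, evenly spaced), with 46 large subunit genes on the left and 31 small subunit genes on the right as thin lines. The thick line is the median of the members and the dashed line the median of all probe sets: the members' medians reach −0.39 (large) and −0.43 (small) at 6 h and stand at −0.11 and −0.12 at 24 h, while the dashed line stays just above 0.

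The shape was shared by most members. In 60 of the 77 the lowest of the 6 means was that at 6 h, against 17.3% of all probe sets, in 10 that at 2 h, in 4 that at 3 h and in 3 that at 1 h. The highest mean was that at 0 h in 63 members and that at 24 h in 12. At 1, 2, 3 and 6 h alike, 71 members lay below their 0 h mean, and 22 were called lower at all 4 of these, or 28.6%, against 10.6% of all probe sets and 21.0% of the bright ones. Each of the 23 members called lower at 1 h was also called at 6 h. The change at 6 h was larger than the highest SD of any time point in 57 members.

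The subunits were close to each other in these counts, and their difference was not tested. Of the 46 large subunit genes 13, 23, 33, 37 and 11 were called lower at 1, 2, 3, 6 and 24 h, and of the 31 small subunit genes 10, 19, 19, 24 and 6. The median changes were −0.17, −0.21, −0.27, −0.39 and −0.11 for the large subunit and −0.21, −0.30, −0.28, −0.43 and −0.12 for the small subunit. The F-test called 33 of 46 and 22 of 31. Summed on the linear scale, where the brightest probe sets weigh most, the members' signal at 1, 2, 3, 6 and 24 h was 89.9%, 85.1%, 83.6%, 78.8% and 92.3% of that at 0 h, with 79.6% for the large and 77.0% for the small subunit at 6 h. In whole blood RNA, fewer cells of a type and less RNA per cell cannot be told apart.

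**Figure D2:**
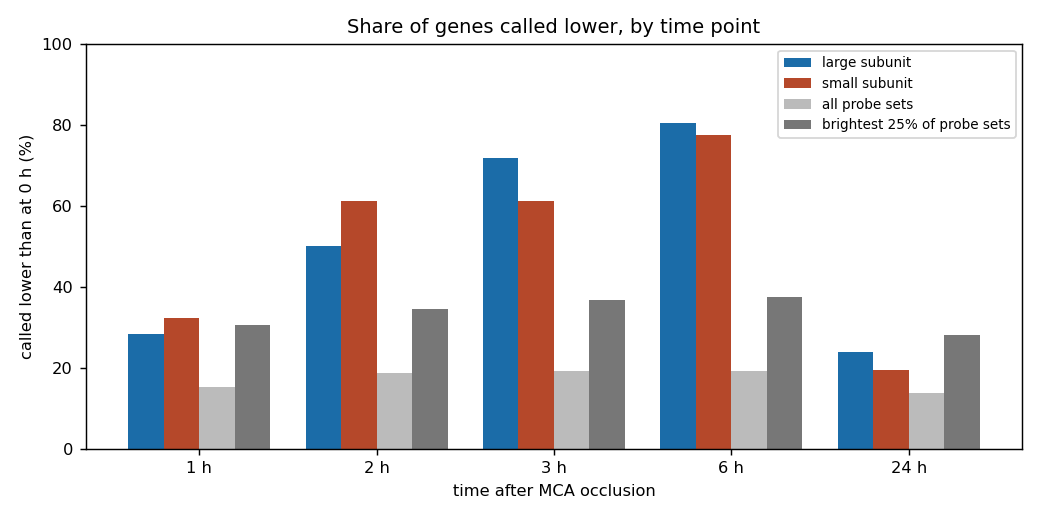
Percent of genes called lower than at 0 h (bars, adjusted p below 0.05) at each later time point, for the large subunit, the small subunit, all 27596 probe sets and the brightest 25% of probe sets by mean signal. The bars of both subunits stand above the brightest 25% at 2, 3 and 6 h, at 80.4% and 77.4% against 37.6% at 6 h, and are near or below it at 1 and 24 h.

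What the members share outside the array can be seen at their transcription starts. RefSeq windows of 300 bases around the start, on the assembly GRCr8, were found for 62 of the 77 members. Within 20 bases either side of the start, the longest run of C and T was 10 bases in the median member (range 3 to 21), against 5 in all 33469 windows, and 46 of the 62 members (74.2%) had a run of 8 or more, against 15.5% of all windows and 15.3% of the 21851 of protein-coding genes. The letters CTTTCC stood near the start on the transcribed strand in 27.4% of members and 1.73% of all windows, and CTTTCT, which shares its first 5 letters with the former, in 21.0% and 1.81%. In the whole window and on both strands, CCGGAA was present in 51.6% of members against 15.0%, GGGCGG in 58.1% against 33.1%, CACGTG in 8.06% against 6.42%, and TATAAA in 9.68% against 14.2%. A match of letters is a description and not a site.

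The windows of 8 members with different courses are shown from 40 bases before to 20 bases after the annotated start, 5′ to 3′ along the gene, with the longest C and T run near the start in capitals. All lie on the minus strand of GRCr8, and they were chosen for the members whose values follow. The first 6 were called lower at 6 h and the last 2 at no time point.
Rpl3: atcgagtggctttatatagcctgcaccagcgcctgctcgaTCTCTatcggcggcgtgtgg
Rps3: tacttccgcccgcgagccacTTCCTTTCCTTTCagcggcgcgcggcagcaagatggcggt
Rps6: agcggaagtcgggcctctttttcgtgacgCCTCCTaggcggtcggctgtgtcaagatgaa
Rpl5: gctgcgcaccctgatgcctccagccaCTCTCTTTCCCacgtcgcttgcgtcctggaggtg
Rpl23: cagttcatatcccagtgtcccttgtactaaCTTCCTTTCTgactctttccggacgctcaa
Rps27: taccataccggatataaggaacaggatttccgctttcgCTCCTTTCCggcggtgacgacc
Rplp0: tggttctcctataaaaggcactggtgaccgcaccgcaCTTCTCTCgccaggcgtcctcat
Rps15: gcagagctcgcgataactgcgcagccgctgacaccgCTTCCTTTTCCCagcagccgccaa
They lie at chr7:113507971-113508030, chr1:163195757-163195816, chr5:106420521-106420580, chr14:1995206-1995265, chr10:83272165-83272224, chr2:177964587-177964646, chr12:46718371-46718430 and chr7:10068096-10068155. Counted inside the 20 bases either side of the start, the runs are 5, 13, 6, 11, 10, 9, 8 and 12 bases long. Letters beyond that bound were not counted, so a run that crosses it is cut there, as in Rps3 and Rps6. A run of 8 or more was present in 35 of the 48 members with a window that were called lower at 6 h (72.9%) and in 10 of the 13 that were never called (76.9%). The run was common to the family, and these shares do not separate members by their course.

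Among the large subunit genes Rpl3 had the lowest F-test p of all members (rank 883 of the 27596 probe sets). Rpl3 is a core protein close to the peptidyl transferase centre, where amino acids are joined. Its probe set spans chr7:121287087-121292461 (rn5, minus strand). Rpl3 had a signal of 11.56 (0.14), 11.001 (0.13), 10.82 (0.12), 10.83 (0.18), 10.73 (0.18) and 11.08 (0.15) at 0, 1, 2, 3, 6 and 24 h. All later means lay below 0 h by more than the highest SD, and 6 h was lowest. The change at 6 h was −0.83 ± 0.08 (95% interval −0.99 to −0.68, adjusted p = 2.85e-12), a percent change of −43.9%.

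Rpl6, an outer protein of the large subunit, was measured at 12.04 (0.11), 11.78 (0.06), 11.54 (0.10), 11.56 (0.10), 11.47 (0.12) and 11.75 (0.10) at 0, 1, 2, 3, 6 and 24 h. It went down in 2 steps, from 0 to 1 h and from 1 to 2 h, and the second was one of only 3 changes from 1 to 2 h called among the members (−0.24 ± 0.05, adjusted p = 0.00178). At 6 h its change was −0.57 ± 0.06 (adjusted p = 5.67e-12). The probe set of Rpl6 lies at chr6:137935455-137936422 (rn5, plus strand) and carries a second symbol, so its signal may include that of a copy.

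Rpl5 and Rpl11 form a complex with the 5S ribosomal RNA that joins the large subunit and, when it is left over, binds the p53 regulator Mdm2. Rpl5 had the lower F-test p of the pair, and its probe set spans chr14:2861180-2867612 (rn5). Its signal was 13.27 (0.09), 13.10 (0.04), 12.97 (0.08), 13.07 (0.11), 12.94 (0.09) and 13.17 (0.07) at 0, 1, 2, 3, 6 and 24 h. The SDs were among the smallest of the members, and a change of −0.33 ± 0.05 at 6 h was called (adjusted p = 1.71e-07). Rpl11 changed by −0.30 ± 0.06 at 6 h (adjusted p = 3.31e-05). Both were near their starting level at 24 h, with changes of −0.09 and −0.09 that were not called.

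Several other large subunit genes changed by −0.78 to −0.68 at 6 h, near the change of Rpl3, while that of Rpl7a was smaller. Rpl8, which also lies near the peptidyl transferase centre, changed by −0.78 ± 0.09 at 6 h and Rpl36a, a protein at the site where spent tRNA leaves, by −0.73 ± 0.10. Rpl23, which can bind Mdm2 as Rpl5 and Rpl11 do, was measured at 10.23 (0.29), 9.88 (0.12), 9.68 (0.25), 9.68 (0.11), 9.51 (0.30) and 9.84 (0.11) at 0, 1, 2, 3, 6 and 24 h. Its mean was below 0 h at every later time and lowest at 6 h, with a change of −0.72 ± 0.10 (adjusted p = 1.85e-07). Rpl18 changed by −0.69 ± 0.11 and Rpl9, near the base of the stalk, by −0.68 ± 0.13, and Rpl9 had already changed by −0.61 ± 0.12 at 1 h. Rpl7a, an outer protein, changed by −0.38 ± 0.07 at 6 h after a called step from 1 to 2 h (−0.20, adjusted p = 0.0419).

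Smaller changes were called in other members with well-known roles. Rpl4, whose extension lines the tunnel through which the new protein chain leaves, changed by −0.27 ± 0.06 at 6 h (adjusted p = 0.000228). Rpl10, which is added late and completes the large subunit, changed by −0.20 ± 0.07 (adjusted p = 0.0105). Rpl13a, known for silencing of inflammatory mRNAs once it is released from the ribosome, changed by −0.41 ± 0.09 and Rpl39, a small tunnel protein, by −0.44 ± 0.14. Of the 8 proteins at the rim of the exit tunnel 5 were called lower at 6 h (median −0.35). Rpl22, known for its role in T cell development and one of the 3 others, had a change of −0.27 ± 0.14 (adjusted p = 0.123).

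The stalk, which recruits the elongation factors, had a smaller median change than the 5S complex (−0.32) or the tunnel rim, a difference that was not tested. Of its 4 genes 2 were called lower at 6 h, with a median change of −0.21. Rplp0, the base of the stalk and a common reference gene, had a signal of 12.20 (0.14), 12.26 (0.10), 12.12 (0.15), 12.11 (0.13), 12.01 (0.23) and 12.26 (0.25) at 0, 1, 2, 3, 6 and 24 h. Its means differed from 0 h by less than the SDs at 1, 2, 3 and 24 h, and the change at 6 h was −0.19 ± 0.09 (adjusted p = 0.079), which was not called. Rplp1 had SDs of 0.30 to 0.55 and a change at 6 h of −0.21 ± 0.20 (adjusted p = 0.414, 95% interval −0.62 to 0.20), too imprecise to tell from 0 or from the members' median. Rplp2 was called lower at 6 h (−0.37 ± 0.13, adjusted p = 0.0216).

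**Figure D3:**
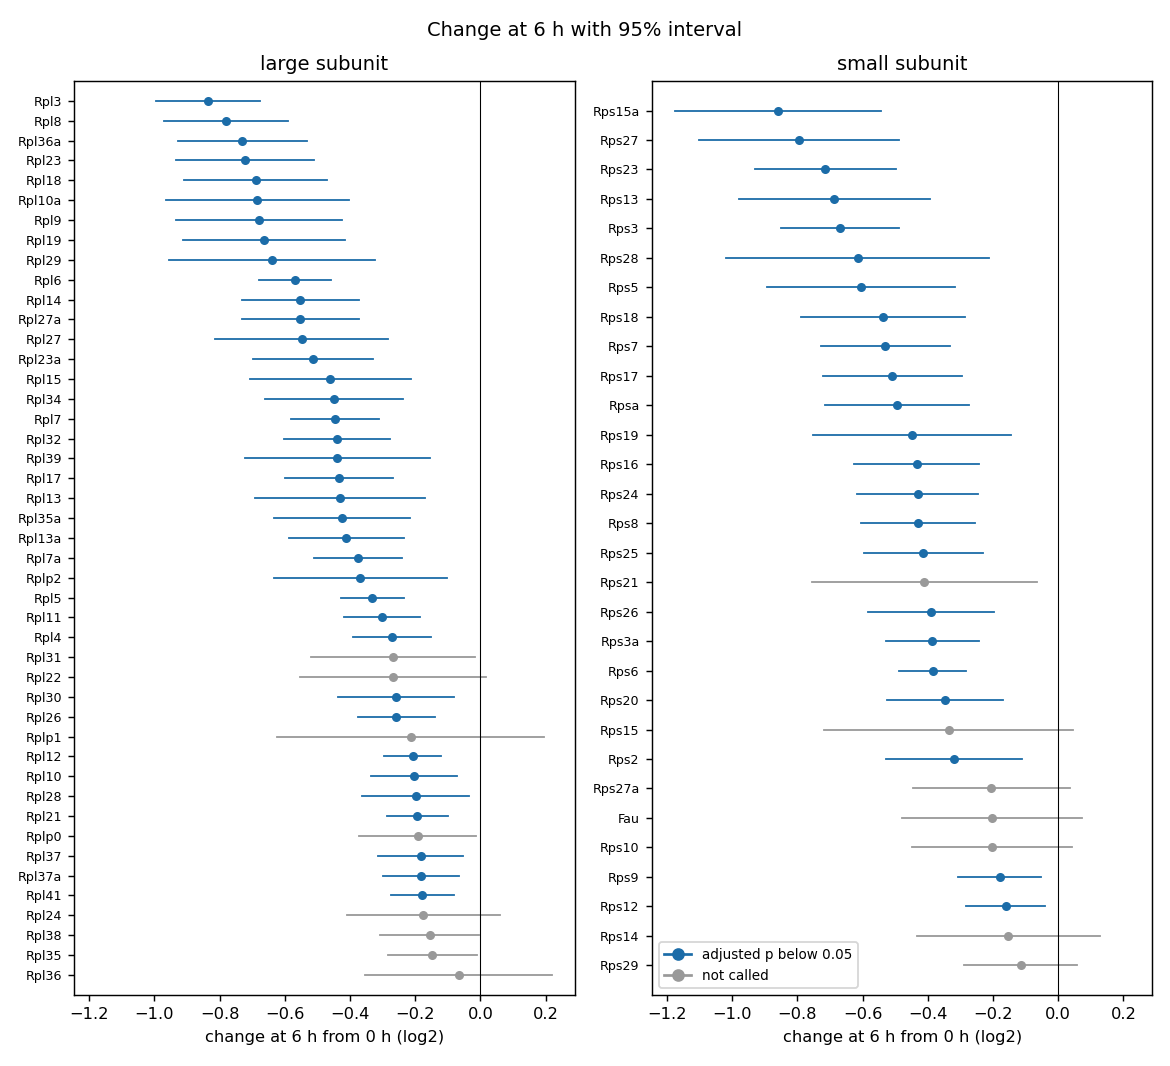
Change at 6 h from 0 h on the log2 scale (horizontal axis) of ribosomal protein genes (rows, 75 of the 77), large subunit on the left and small subunit on the right, with points for the change and lines for its 95% interval. Blue marks genes with an adjusted p below 0.05 and grey those not called, and every point lies left of 0, from −0.86 for Rps15a to −0.07 for Rpl36.

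In the small subunit Rps6 had the lowest F-test p. It is the protein phosphorylated by the S6 kinases downstream of mTOR, and its probe set spans chr5:109184689-109199604 (rn5, minus strand). Rps6 was at 12.29 (0.10), 12.10 (0.05), 11.96 (0.10), 12.03 (0.10), 11.90 (0.12) and 12.26 (0.04) at 0, 1, 2, 3, 6 and 24 h. It was below 0 h from 1 to 6 h and back at 24 h. The change at 6 h was −0.38 ± 0.05 (adjusted p = 2.64e-08), that at 24 h was −0.03 ± 0.05 (adjusted p = 0.721), and the step between them was 0.36 ± 0.05 (adjusted p = 3.56e-07).

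Rps3 lies at the mRNA entry of the small subunit and also takes part in DNA repair and NF-kappaB signalling. Rps3, with a probe set at chr1:170637728-170643030 (rn5, minus strand), was measured at 11.71 (0.15), 11.44 (0.14), 11.16 (0.13), 11.11 (0.17), 11.04 (0.21) and 11.48 (0.23) at 0, 1, 2, 3, 6 and 24 h. It fell from 0 to 1 h and again from 1 to 2 h (−0.28 ± 0.09, adjusted p = 0.0339), and the change at 6 h was −0.67 ± 0.09 (adjusted p = 2.91e-08). Rps23, a protein of the decoding centre, changed by −0.71 ± 0.11 at 6 h.

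The sharpest early change was that of Rps27, a zinc finger protein also called metallopanstimulin. Its probe set at chr2:209004973-209006062 (rn5) was the dimmest of all members and the one outside the brightest 25%. Rps27 stood at 7.63 (0.31), 6.75 (0.21), 6.87 (0.37), 6.90 (0.35), 6.84 (0.35) and 7.00 (0.24) at 0, 1, 2, 3, 6 and 24 h. The whole drop was present at 1 h (−0.88 ± 0.15, adjusted p = 8.11e-06), and the mean stayed down to 24 h (−0.63 ± 0.15, adjusted p = 0.00104). Rps15a had the largest change at 6 h. It was measured at 10.76 (0.44), 10.27 (0.13), 10.13 (0.31), 9.94 (0.25), 9.90 (0.49) and 10.50 (0.16) at 0, 1, 2, 3, 6 and 24 h. Its SDs at 0 and 6 h were 0.44 and 0.49, so that its change of −0.86 ± 0.16 (adjusted p = 1.61e-05) is less precise than that of Rpl3.

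Other small subunit members were called lower at 6 h. Rpsa, which anchors to the outer face of the small subunit and was first known as a laminin receptor, changed by −0.49 ± 0.11 at 6 h, and Rps19, which is mutated in Diamond-Blackfan anemia, by −0.45 ± 0.15 (adjusted p = 0.0144). Rps9 was called at 6 h alone (−0.18 ± 0.06, adjusted p = 0.0194), as was Rpl28 in the large subunit (−0.20 ± 0.08, adjusted p = 0.0467). Of the 14 proteins of the head of the small subunit 10 were called lower at 6 h, with a median change of −0.42.

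The 16 members not called at 6 h included Rpl22, Rpl24, Rpl31, Rpl35, Rpl36, Rpl38, Rplp0, Rplp1, Fau, Rps10, Rps14, Rps15, Rps21, Rps27a and Rps29, and all of the 16 but Rps21 were called at no time point. Their median change at 6 h was −0.20 against −0.44 in the called members, and their median SD in the fit was 0.24 against 0.18. In 9 of the 16 the 95% interval at 6 h reached the members' median of −0.41. For these the arrays could not separate the change from that of the median member.

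In Rps29 and Rpl36 the interval did not reach that median. Rps29, a small zinc finger protein of the head with a bright probe set, was at 13.01 (0.17), 12.89 (0.16), 12.87 (0.23), 12.96 (0.15), 12.89 (0.15) and 13.00 (0.14) at 0, 1, 2, 3, 6 and 24 h. Its means at 0 and 24 h were nearly equal, with a change of −0.12 ± 0.09 at 6 h (95% interval −0.29 to 0.06, adjusted p = 0.285). Rpl36 had 9.44 (0.45), 9.38 (0.16), 9.31 (0.35), 9.37 (0.17), 9.38 (0.21) and 9.46 (0.25) at 0, 1, 2, 3, 6 and 24 h, and a change at 6 h of −0.07 ± 0.14 (95% interval −0.35 to 0.22, adjusted p = 0.729). For Rps15, a protein of the head of the small subunit, the change at 6 h was −0.34 ± 0.19 (adjusted p = 0.15), and for Rps14, a platform protein lost in the 5q− syndrome, −0.15 ± 0.14 (adjusted p = 0.392). Neither of the members made as a fusion with ubiquitin or a ubiquitin-like protein was called: Rps27a had a change of −0.20 ± 0.12 (adjusted p = 0.164) and Fau of −0.20 ± 0.14 (adjusted p = 0.238).

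Between 6 and 24 h the direction turned. All 77 members had a higher mean at 24 h than at 6 h, with a median step of 0.30, and the step was called higher in 39, against 10.2% of all probe sets and 23.8% of the bright ones. The called steps comprised 25 of the large and 14 of the small subunit genes, and ranged from 0.13 to 0.60. By unadjusted p 57 (74.0%) were higher, against 16.0% of all and 32.7% of bright probe sets, and 0 lower, and by the ordinary test 38 were higher. Bonferroni adjustment left 2 (2.60%), against 1.56% of all and 4.84% of bright probe sets, so the members' share was then below that of the bright ones. Rps15a had the largest step (0.60 ± 0.16, adjusted p = 0.00379). Rplp0, Rpl24 and Rps27a were called in this step without having been called at 6 h. Rpl24, which takes part in joining the subunits, changed by 0.33 ± 0.12 (adjusted p = 0.0359).

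At 24 h most means were still below 0 h, but few of them were called. Of the 61 members lower at 6 h, 58 still had a mean below 0 h at 24 h and 17 were still called lower, while 44 were not, 27 of these with a called step. A median of 33.7% of the 6 h change was left at 24 h, with a range of −35.7% to 82.7%, where a negative value is a mean above 0 h. Rpl3, at −0.48, Rpl8, at −0.48, and Rpl18, at −0.53 ± 0.11 (adjusted p = 0.000156), stayed well below their start. They were among the 12 members called lower at every time after 0 h (15.6%, against 8.43% of all probe sets and 17.1% of the bright ones), which also included Rpl6, Rpl23, Rpl27, Rpl36a, Rps3, Rps23, Rps25 and Rps27. Rpl4 and Rps6 were back, with changes at 24 h of 0.04 and −0.03, and the highest mean relative to 0 h was that of Rps14 (0.18 ± 0.14, adjusted p = 0.322), which was not called.

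Few of the steps between neighbouring time points from 1 to 6 h were called. From 1 to 2 h 3 members were called lower, Rpl6, Rpl7a and Rps3, against 4.11% of all probe sets. From 2 to 3 h it was 1 (Rpl17, a protein of the tunnel exit, −0.27 ± 0.08, adjusted p = 0.0401) against 1.62%, and from 3 to 6 h 1 (Rpl7, −0.23 ± 0.07, adjusted p = 0.0384) against 2.44%. These shares are near the background. The median steps were −0.09, −0.01 and −0.09, with 66, 41 and 72 of the 77 members lower at the later time.

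Signal level bears on what could be called. Of the 13 members with a mean signal under 10, 9 were called lower at 6 h with a median change of −0.46, of the 21 from 10 to 11 it was 14 with −0.44, of the 20 from 11 to 12 all 20 with −0.50, and of the 23 at 12 or more 18 with −0.21. The brightest probe sets thus had the smaller changes. Across the 77 members, which share arrays, the mean signal correlated with the 6 h change at r = 0.40 (rho = 0.40) and with the SD in the fit at r = −0.72 (rho = −0.79), given as descriptions. Signals near the top of an array's range are compressed, and whether this played a part was not tested.

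**Figure D4:**
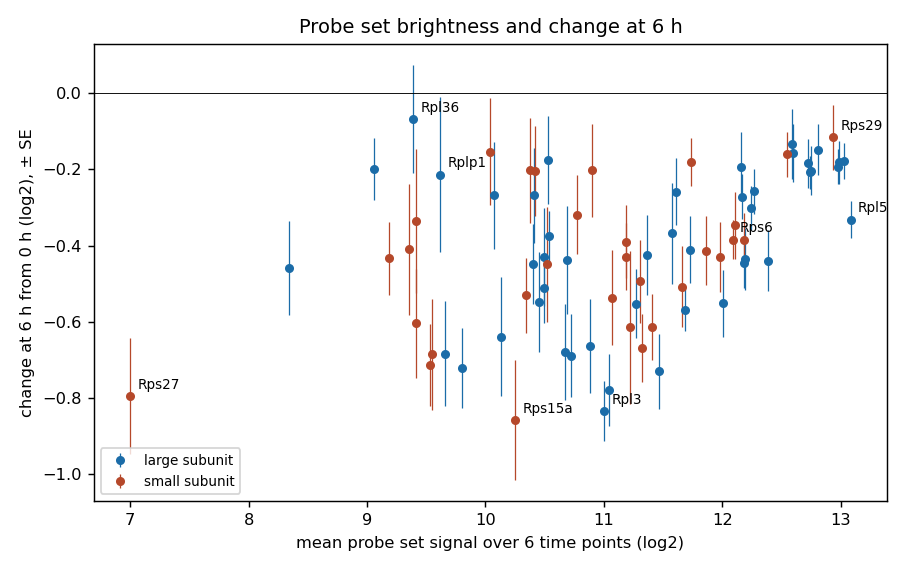
Change at 6 h from 0 h (vertical axis, log2, with bars of ± 1 SE) against the mean signal of the probe set over the 6 time points (horizontal axis, log2), for the 46 large and 31 small subunit genes, with 8 genes named. Genes with a signal of 12 or more lie closer to 0 (median −0.21) than those from 11 to 12 (median −0.50), and dim genes such as Rplp1 and Rps27 have the longer bars.

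Ribosomal protein genes have many near-identical processed copies in the genome, and a probe set may read several. The table gives 1 probe set for 39 members and several for 38, on more than 1 chromosome in 36 of these. For 7 members the probe set used carries several symbols, and for 24 it spans under 1000 bases, of which 18 were called lower at 6 h (median −0.36), beside 43 of the 53 with a longer span (median −0.43). Of the 58 probe sets of the members that were not used, 5 held exactly the means and SDs of a used one and 3 repeated another, which left 50 with values of their own. Of these 50, 35 were lower and 0 higher at 6 h, with a median of −0.36. No member had probe sets of opposite sign at 6 h. The changes of the probe sets of 1 member differed by 0.04 in the median and by up to 0.48, in Rpl13, and 4 of the 6 probe sets of Rpl39 held identical values. Among the 39 members with 1 probe set 31 were lower at 6 h, with a median of −0.44.

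Genes of the rest of the translation machinery were examined as lists. Initiation factors, which load the mRNA onto the small subunit, had 23 of 32 measured members lower and 1 higher at 6 h, with a median of −0.37. Eif2s1, the subunit of eIF2 phosphorylated under stress, changed by −1.13 ± 0.12 (adjusted p = 4.27e-11), and Eif3l by −0.83 ± 0.13 (adjusted p = 7.11e-07). Of 11 elongation and chain-handling factors 8 were lower and 0 higher at 6 h, with a median of −0.27, led by Eef1b2, a nucleotide exchange factor (−0.96 ± 0.12, adjusted p = 4.97e-09), and Naca, which binds new chains (−0.71 ± 0.06, adjusted p = 5.61e-13). Many of these mRNAs carry a TOP motif as well. At 24 h 2 of the 11 elongation factors were lower and 1 higher, and of the initiation factors 18 lower and 2 higher.

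Factors of ribosome biogenesis had larger median changes than the ribosomal proteins. Of 41 measured, 32 were lower and 0 higher at 3 h, with a median change of −0.54, and 34 lower and 1 higher at 6 h, with −0.50. The largest at 3 h were Utp18, of the small subunit processome (−1.23 ± 0.18, adjusted p = 2.92e-07), and Gnl3, or nucleostemin (−0.93 ± 0.11, adjusted p = 2.58e-09). At 24 h 33 of the 41 were lower and 1 was higher, with a median of −0.32, while the ribosomal proteins had 17 of 77 lower and −0.12. The lists also differ in signal level, with a median of 7.62 for the biogenesis factors and 11.19 for the ribosomal proteins. Neither the difference between the lists nor the part of signal level in it was tested.

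In a list of regulators of TOP mRNAs and mTOR signalling 17 of 25 measured genes were lower and 1 higher at 6 h (median −0.36). The largest were the eIF2 kinases Eif2ak4 (−0.93 ± 0.08, adjusted p = 3e-13) and Eif2ak3 (−0.91 ± 0.09, adjusted p = 4.4e-12). Larp1, which binds TOP mRNAs, changed by −0.68 at 6 h, and the one gene that was higher, Eif4ebp1, an inhibitor of cap-dependent initiation, by 0.41. Its relatives Eif4ebp2 (−0.51, adjusted p = 5.25e-05) and Eif4ebp3 (−0.22, adjusted p = 0.0245) were lower at 6 h. Mitochondrial ribosomal proteins, which belong to another ribosome, had 35 of 70 lower and 4 higher at 6 h, with a median of −0.25. At 1 h they had 34 lower and 1 higher, and from 6 to 24 h 3 were higher and 4 lower, with a median step of 0.06, against 39 and 0 of 77 with 0.30 in the cytosolic ribosomal proteins. Of 11 measured paralogs outside the naming rule 5 were lower and 2 higher at 6 h, led by Rpl22l1 (−0.80 ± 0.16, adjusted p = 6.78e-05) and Rpl36al (−0.59 ± 0.12, adjusted p = 4.92e-05).

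**Figure D5:**
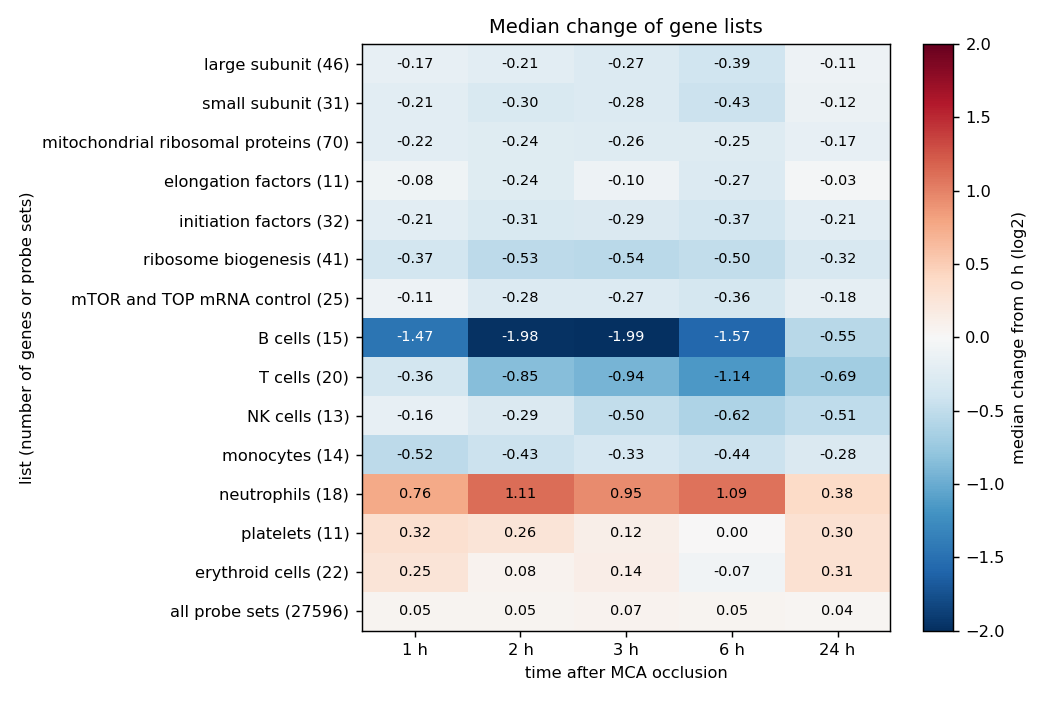
Median change from 0 h (log2, colour and printed number) of each gene list (rows, with the number of genes or probe sets) at 1, 2, 3, 6 and 24 h post MCA occlusion (columns). Both ribosomal subunits lie between −0.11 and −0.43, well short of the B cell list (−1.99 at 3 h) and the T cell list (−1.14 at 6 h), while the neutrophil list is positive throughout and reaches 1.11 at 2 h.

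Markers of the blood cell types changed over the same hours, in different directions and with different courses. All 20 T cell markers were lower at 6 h, with a median change of −1.14, and their summed linear signal at 1, 2, 3, 6 and 24 h was 77.1%, 56.9%, 52.0%, 45.0% and 61.8% of 0 h. The summed signals of the T cell, erythroid and platelet lists were each lowest at 6 h, at 45.0%, 96.2% and 98.9% of 0 h. That of the ribosomal protein genes was also lowest then, at 78.8%. So were those of the initiation factor (79.8%), elongation factor (85.1%), ribosome biogenesis (68.2%) and TOP regulator (78.5%) lists. Cd4, the receptor of helper T cells, changed by −1.55 ± 0.12 (adjusted p = 7.78e-15), and Cd28, a costimulatory receptor, by −1.45 ± 0.18 (adjusted p = 2.92e-09). B cell markers were lower in 14 of 15 at 3 h, where their median was −1.99, and their summed signal was 42.7%, 35.2%, 33.6%, 41.9% and 66.8%. Ebf1, a B cell transcription factor, had changed by −2.48 ± 0.13 (adjusted p = 2.59e-20) at 3 h and Ms4a1, which encodes CD20, by −2.42 ± 0.13 (adjusted p = 6.3e-20).

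Neutrophil markers went the other way, with 15 of 18 higher at 2 h and 16 at 6 h, and a summed signal of 204%, 280%, 256%, 286% and 161% of 0 h. Il1r2, a decoy receptor for interleukin-1, changed by 2.95 ± 0.14 (adjusted p = 1.98e-21) at 2 h and Fpr1, the formyl peptide receptor, by 2.80 ± 0.16 (adjusted p = 2.38e-19). NK cell markers were lower in 10 of 13 and higher in 2 at 6 h (median −0.62), where Klrb1b was higher (1.66 ± 0.09, adjusted p = 3.45e-20) and Fcgr3a lower (−1.37 ± 0.12, adjusted p = 8.64e-14). The summed signal of the NK cell list was 98.7%, 80.9%, 72.3%, 66.4% and 61.7% of 0 h at 1, 2, 3, 6 and 24 h. Monocyte markers, with a summed signal of 78.0%, 88.6%, 97.6%, 93.0% and 84.3%, at 1 h had 10 of 14 lower and 1 higher, with Ly86 (−1.26 ± 0.14, adjusted p = 1.72e-09) and Cd68 (−1.04 ± 0.14, adjusted p = 1.36e-07) the largest.

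Red cell and platelet markers had few calls at 6 h. Of 22 erythroid markers 4 were lower and 0 higher at 6 h and 0 lower and 15 higher at 24 h. The summed signal was 108%, 102%, 103%, 96.2% and 113% of 0 h. Hba1 and Hba2, neither of them called, held identical values, and each was counted and summed. From 6 to 24 h 18 of the 22 were higher, with a median step of 0.38. Tfrc, the transferrin receptor of immature red cells, was lower at 6 h (−0.56 ± 0.14, adjusted p = 0.00144) and changed by 1.21 ± 0.14 (adjusted p = 7.11e-09) at 24 h and Ank1, a membrane skeleton protein, by 1.00 ± 0.11 (adjusted p = 1.79e-09). Of 11 platelet markers 7 were higher and 0 lower at 1 h, among them Gp5 (0.54 ± 0.11, adjusted p = 0.00025), and 0 were called at 6 h, and their summed signal was 113%, 108%, 102%, 98.9% and 112% of 0 h. No marker is listed at 0 in this table, whose lowest mean is 2.29. The part of these cell types in the course of the ribosomal protein genes was not tested.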

How the data were processed

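Blood RNA of SHR rats was hybridised to Affymetrix RatGene 1.0 ST arrays. The authors deposited log2 signals per probe set, summarised by gene-level RMA per the file headers, as a mean and SD per time point, with positions on rn5. RMA quantile normalizes the arrays, so a shift common to all genes would be removed. The table also holds the authors' fold changes, p-values and FDRs, which were not used, and 47 single-array columns named only by running numbers, which no label carries and which were not used. The planned linear model on single arrays was therefore replaced by the same moderated F and t tests computed in limma from each time point's deposited mean, SD and number of arrays (squeezeVar without trend, 41 residual degrees of freedom, two-sided), with Benjamini-Hochberg adjustment over all 27596 probe sets, and all p-values in the text are from these. The computation was checked on simulated data. Precision is limited by the 7 or 8 arrays of a time point, drawn from the same rats, and RNA batches were not analysed here.

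Of several probe sets of a symbol, that with the highest mean was used. Named were the 10 members with the lowest and the 3 with the highest F-test p, the 2 largest rises and falls at each time, the brightest and dimmest member and 20 members with known roles, and from other lists up to 2 genes with the largest called changes where the list's median was largest in size. Rpl7 and Rpl17, Larp1, Eif4ebp1, Eif4ebp2 and Eif4ebp3, and the members in lists of calls were named after their values were seen. Results of a few genes are not reported by name here. Members and lists were chosen with earlier results of these data known. Sequences are from RefSeq (GRCr8). Alternatives were other variance models, filters, scalings, probe set choices and adjustments, and the F-test without the 0 or 24 h samples. Limiting the members to those with 1 probe set or a signal under 11, and leaving out 0 h, were chosen after seeing the data.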

Additional observations from a re-analysis of the deposited data

Results flagged for a closer look

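Changes from 0 h at neighbouring time points, which share the 0 h samples, were compared directly as the step between them. From 1 to 2 h, 3 members differed: Rpl6 by −0.24, Rpl7a by −0.20 and Rps3 by −0.28 on the log2 scale. From 2 to 3 h the step of 1 member was called, Rpl17 (−0.27), and from 3 to 6 h that of 1 member, Rpl7 (−0.23). From 6 to 24 h, 39 members were called, each of them higher at 24 h. The shift from tail vein to heart blood falls in that last step and cannot be told apart from it.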

How the results depend on the processing

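No paired analysis was possible because the single-array columns are named only by running numbers that no sample label carries, and which were not used, and leaving out each rat in turn was not run for the same reason. With the deposited scaling, centring and quantile normalization alike, 0 members were called higher than at 0 h. Bonferroni adjustment left 16 members by the F-test, 2, 9, 11, 18 and 2 lower at 1, 2, 3, 6 and 24 h, 0, 0 and 0 in the steps up to 6 h and 2 from 6 to 24 h. By that rule 3.33%, 6.74%, 6.41%, 6.55% and 2.42% of all probe sets and 7.70%, 14.7%, 13.8%, 14.8% and 6.38% of the bright ones were lower at 1, 2, 3, 6 and 24 h, against 2.60%, 11.7%, 14.3%, 23.4% and 2.60% of the members, so that the members' share at 2 h was then below that of the bright ones. The F-test gave 20.8% of the members, 15.4% of all and 37.1% of the bright ones, and the step from 6 to 24 h 2.60%, 1.56% and 4.84%. In both, the members' share was below that of the bright ones. The 39 members with 1 probe set gave 29 by the F-test, 23, 28, 31 and 11 lower at 2, 3, 6 and 24 h, 1 from 1 to 2 h and 23 from 6 to 24 h. The 34 members with a signal under 11 gave 22 by the F-test, 12, 17, 20, 23 and 8 lower, and 1, 0, 0 and 13 in the 4 steps. Fewer members entered in both, so these counts cannot be set directly against those of all 77. The F-test called 74.4% of the members with 1 probe set, against 71.4% of all 77. It called 61.5% of those with a signal under 10 and 66.7% of those from 10 to 11. Centring on the median gave 35 lower at 1 h, and 1 and 2 in the steps from 1 to 2 h and 2 to 3 h. The step from 1 to 2 h had 5 by the ordinary test. The F-test called 51 members (66.2%) without the 24 h samples, against 53.5% of all and 76.9% of bright probe sets, and 39 (50.6%) without the 0 h samples, against 28.0% and 56.8%. The step from 2 to 3 h had 0 with the variance of the compared time points and 0 after quantile normalization, and that from 3 to 6 h 0 with the former and 2 with the second highest probe set. The cause was not tested. Over all probe sets, centring moved the share of lower among all calls from 41.4% to 60.0% at 1 h, 46.1% to 55.8% at 2 h, 41.3% to 52.8% at 3 h, 46.2% to 55.4% at 6 h and 44.4% to 62.7% at 24 h. The members lower at 6 h were 61, 65 after centring and 54 after quantile normalization.

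Of 1460 changes of the 35 named genes under alternatives 18 turned sign and 1 became 0. None of the 19 was called in either setting. Under the 2 scalings these changes were at most 0.0741 in size before, but that of Rpl24 at 2 h was −0.18 (adjusted p = 0.194). With centring these were Rpl22 (−0.00486), Rpl36 (−0.019), Rpl4 (−0.00244) and Rps15 (−0.037) at 24 h, Rpl28 (−0.028) and Rps14 (−0.043) at 1 h, and Rps9 (−0.022) at 2 h. With quantile normalization they were Rpl22 (0.0027), Rpl28 (0.012) and Rps29 (0.038) at 3 h, Rpl28 (0.071) and Rps9 (−0.075) at 2 h, Rps27a (0.022) at 1 h, and Rpl4 (−0.00644), Rplp0 (0, no sign), Rplp1 (0.062) and Rps29 (0.0074) at 24 h. With the second probe set they were Rpl24 at 2 h (0.038) and Rpl7a at 24 h (0.014). Of the others 1353 kept their direction and call, 67 lost it and 21 gained one.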
